A study of Homo sapiens with 6 samples.

Results

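The nuclear genes for the subunits of the mitochondrial respiratory chain and of ATP synthase were compared between cells kept with and without GCA. Members were chosen by symbol alone: NDUFA, NDUFB, NDUFC, NDUFS and NDUFV genes for complex I, UQCR genes and CYC1 for complex III, CYCS for cytochrome c, numbered COX genes (4 to 8) for complex IV, and ATP5F, ATP5M and ATP5P genes with ATP5IF1 for complex V. Assembly factors named NDUFAF were left out. This gave 83 of the 16229 genes in the count table, and 80 of them passed the filter on low counts and were tested. By complex these were 37 of 37 genes of complex I, 10 of 10 of complex III, 1 of 1 for cytochrome c, 14 of 16 of complex IV and 18 of 19 of complex V. NDUFA4 and its relative NDUFA4L2 were placed with complex IV, where the NDUFA4 protein is known to sit, although their names are those of complex I genes. The genome of the mitochondrion encodes further subunits. No symbol in the table starts with MT-, the only form of their names that was looked for, and these subunits were not analysed here.

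The study sequenced RNA from 6 libraries, 3 per group, of a line labelled MC38 of wild-type genotype, described as colorectal cancer cells. The GCA group was kept for 24 h with GCA and the CON group for the same time without it. GCA is read as the glycocholic acid of the series' title, a bile acid conjugated to glycine, at a dose not given in the sources used here. MC38 is known as a mouse line, whereas organism, build and gene symbols are human, and the extraction text mentions heart, so the identity of the cells rests on the labels. The GCA libraries carry titles beginning with fa, and their group was taken from the treatment label. Whether the libraries of a group came from separate cultures is not stated, so each p-value measures the spread between these libraries, which may be technical.

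The respiratory chain passes electrons from NADH and succinate to oxygen. Complex I takes them from NADH and complex II from succinate, complex III moves them on to the small soluble carrier cytochrome c, and complex IV hands them to oxygen. Complexes I, III and IV pump protons across the inner membrane, and complex V, the ATP synthase, lets them return to drive ATP synthesis. Most subunits are made from nuclear genes and imported. The transcription factors NRF1 and GABP (an ETS family factor) and the coactivators of the PGC-1 family are the best known regulators of these genes.

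Promoters are shown first because they are where these regulators are known to bind. Of the 83 genes, 68 had an entry in a RefSeq promoter table (build GRCh38.p14), and the 250 bases upstream of each listed start were searched on both strands. The NRF1 core GCGCATGC (reverse complement GCATGCGC) was present in 11 of 68 members (16.2%), against 4.1% of 12797 genes of the count table with a promoter entry. A stretch that holds the letters of both orientations counts as 1 promoter. The ETS core CCGGAAG (reverse complement CTTCCGG) was present in 22.1% of members and 13.6% of the genes of the count table. The YY1 core AAGATGGC (reverse complement GCCATCTT) was present in 1.5% of members and 1.6% of those genes. Among all 35116 promoters of the table the shares were 2.6%, 8.5% and 1.4%. A match describes letters in this window and is neither a shown binding site nor a cause. The 4 sequences below run 5′ to 3′ with matches in capitals. CYCS and NDUFA2 are the members with the largest fall and the most stable rise, COX6A1 is the most abundant gene of complex IV, and ATP5PF holds all 3 cores.
CYCS, chr7:25125261-25125510, minus strand: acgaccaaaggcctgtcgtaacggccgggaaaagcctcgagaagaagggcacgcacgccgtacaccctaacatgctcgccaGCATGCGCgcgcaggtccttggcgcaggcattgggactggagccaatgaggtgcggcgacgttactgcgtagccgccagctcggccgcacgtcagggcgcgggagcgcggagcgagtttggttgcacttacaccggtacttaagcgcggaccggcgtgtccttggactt
COX6A1, chr12:120437863-120438112, plus strand: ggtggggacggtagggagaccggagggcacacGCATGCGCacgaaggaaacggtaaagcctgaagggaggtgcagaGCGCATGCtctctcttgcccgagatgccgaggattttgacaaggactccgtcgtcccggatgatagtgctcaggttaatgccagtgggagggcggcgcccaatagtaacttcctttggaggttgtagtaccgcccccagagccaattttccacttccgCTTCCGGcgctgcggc
ATP5PF, chr21:25735055-25735304, minus strand: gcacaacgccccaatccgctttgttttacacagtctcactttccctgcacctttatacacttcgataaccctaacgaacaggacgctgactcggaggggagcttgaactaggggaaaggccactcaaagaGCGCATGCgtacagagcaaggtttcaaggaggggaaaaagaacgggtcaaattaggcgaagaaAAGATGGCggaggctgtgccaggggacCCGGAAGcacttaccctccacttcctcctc
NDUFA2, chr5:140647631-140647880, minus strand: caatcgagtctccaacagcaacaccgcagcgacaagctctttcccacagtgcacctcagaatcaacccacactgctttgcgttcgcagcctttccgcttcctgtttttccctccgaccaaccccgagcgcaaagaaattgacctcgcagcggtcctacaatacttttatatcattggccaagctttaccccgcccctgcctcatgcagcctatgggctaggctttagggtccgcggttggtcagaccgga
CYCS carries the reverse complement of the NRF1 core, its first base 169 bases upstream of the start. COX6A1 carries the NRF1 core in both orientations, 218 and 174 bases upstream, and an ETS core at 16 bases. ATP5PF has NRF1, YY1 and ETS cores at 120, 57 and 30 bases, and NDUFA2 has none of these letters in the window. Of the 8 members that passed the test below, CYCS was the only one whose promoter entry held any of the 3 cores, 6 had an entry without them, and NDUFC2 had no entry. Any of the 3 was present in 33.8% of members and 18.0% of the genes of the count table. A relation between the cores and the calls was not tested.

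Library totals ran from 18057453 to 20531612 counts. The member genes together took 1.33% to 1.68% of the counts of a library. The library CON 1 stood apart from CON 2 and CON 3: it lay at 34.5 on the second principal component (18.1% of the variance over all tested genes). There CON 2 and CON 3 lay at -14.7 and -17.8. GCA 1 lay at 8.1, on the same side as CON 1, and GCA 2 and GCA 3 at -5.8 and -4.3. Of the epithelial markers, EPCAM, KRT19 and CDX2 had at least 549 counts in each library, while LGR5 had 0 counts in 5 libraries and 1 in GCA 3, and VIL1, CDH17 and CDX1 had at most 22. Of the muscle markers, MYH6, MYH7 and ACTC1 had at most 1 count in a library, MYL2 had 11 to 36, and TNNI3 had 415 to 781 and was higher in GCA (log2 fold change 0.68, edgeR adjusted p = 0.00136). Of the leukocyte markers, PTPRC and CD3E had at most 1 count, while CD68 had 271 to 495 and CORO1A had 96 to 337 and was higher (log2 fold change 1.16, edgeR adjusted p = 0.00368). CORO1A kept its call with the correction, at 0.69 (edgeR adjusted p = 0.0445). The summed level of the 12 epithelial markers ran from 7919 to 10110 CPM (counts scaled to TMM-adjusted library size) in CON and from 11130 to 12700 in GCA. Most of it came from KRT8, KRT18 and KRT19, with CON means of 4957, 1446 and 2015 CPM. Of 9 tested epithelial markers 4 were higher and MUC2 was lower, beside 18.3% and 18.1% of all tested genes. With the correction 3 were higher and 2 lower (11.8% and 16.6% of all tested genes), and KRT8 and KRT18 lost their calls. Leaving out CON 1 gave 6 higher and 1 lower (25.3% and 27.3%). The sums were 27.7 to 31.7 and 32.0 to 41.6 CPM for 7 leukocyte markers, 11.96 to 13.3 and 17.1 to 18.7 for 7 fibroblast and endothelial markers, and 23.5 to 26.8 and 37.3 to 42.4 for 8 muscle markers. These sums too were mostly single genes, with CON means of 22.3 CPM for CD68, 11.1 for COL1A1 and 23.8 for TNNI3. Of the 3 tested fibroblast and endothelial markers, COL1A1 and VWF were higher, and with the correction VWF alone. The part of the markers in the results below was not tested. In RNA from whole cultures, fewer cells of a kind and less RNA per cell cannot be told apart.

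Few member genes passed the test between GCA and CON. By the quasi-likelihood test of edgeR, with p adjusted over 12604 genes after Benjamini and Hochberg, 8 of 80 members passed an adjusted p of 0.05, against 36.4% of all tested genes. Of these, 6 were higher in GCA, where 18.3% of all genes were, and 2 were lower, where 18.1% of all genes were. The higher genes were NDUFA2, NDUFC2, NDUFB11, NDUFA11 and NDUFS8 of complex I and UQCRC1 of complex III, and the lower genes were CYCS and NDUFA9. Complex IV and complex V had no member past the threshold. This test did not pair libraries by replicate number. With the replicate number as a block, 8 members were higher (20.0% of all tested genes) and 3 lower (21.0%). Without the block, the members' median log2 fold change was 0.12, against -0.04 over all tested genes. Of the 80 values 56 were above 0 (38 with the GC and length correction described below). The medians were 0.08 in complex I, 0.12 in complex III, 0.24 in complex IV and 0.06 in complex V.

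**Figure D1:**
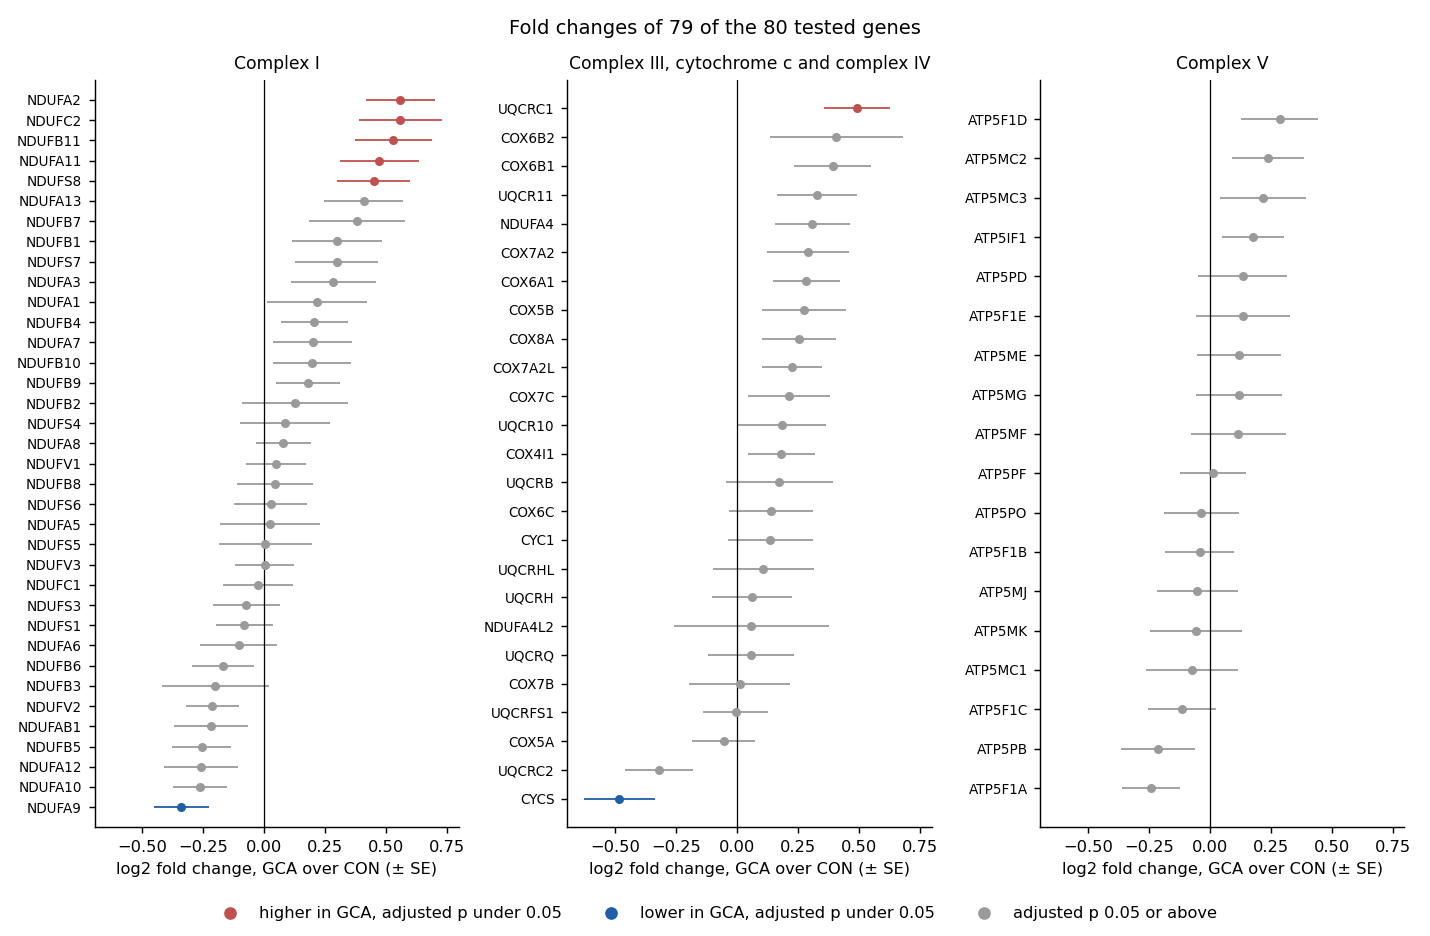
Log2 fold change of GCA over CON (x axis, edgeR, ± SE) for 79 of the 80 tested genes, by complex and ordered by size. Red and blue points passed an adjusted p of 0.05 (6 higher, and CYCS and NDUFA9 lower) and grey points did not. All 14 tested genes of complex IV and all 18 of complex V are grey.

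The 37 genes of complex I span a wide range of abundance. On the FPKM scale (counts scaled to library size and gene length), the mean over 6 libraries ran from 3.76 for NDUFS1, the largest core subunit of the NADH-oxidising arm, to 614.8 for NDUFB9, an accessory subunit, with a median of 97.6. NDUFA13, an accessory subunit also studied as GRIM-19, was second at 429.9 FPKM. In complex I, 5 genes were higher and 1 was lower. The core subunits, which carry the flavin, the iron-sulfur clusters and the quinone site, gave 1 higher gene of 7, and the 30 accessory subunits gave 4 higher and 1 lower. Of all tested genes 18.3% were higher and 18.1% lower, and a difference between core and accessory subunits was not tested.

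NDUFA2, an accessory subunit of the peripheral arm (chr5:140645285-140647630), gave 82.3, 59.1 and 60.1 CPM in CON 1, 2 and 3 and 91.8, 102.3 and 102.4 CPM in GCA 1, 2 and 3. Every GCA library lay above every CON library. The means were 67.2 ± 13.1 CPM (SD, n = 3) in CON and 98.8 ± 6.09 CPM (SD, n = 3) in GCA, a log2 fold change of 0.56 ± 0.14 (SE, edgeR adjusted p = 0.00865). Its call remained in 20 of 20 alternative fits, with an adjusted p of at most 0.0470. The genes IK and TMCO6 share exon bases with NDUFA2 on the other strand, 16.5% of its exon length together. Neither passed the test, with log2 fold changes of -0.11 ± 0.12 (SE) for IK and 0.02 ± 0.12 (SE) for TMCO6.

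NDUFC2, a subunit of the membrane arm (chr11:78068297-78079862), was counted at 134, 130 and 124 reads in CON 1, 2 and 3 and at 215, 214 and 169 in GCA 1, 2 and 3. All 3 GCA counts lay above all 3 CON counts, and here CON 1 did not stand apart. The log2 fold change was 0.56 ± 0.17 (SE, edgeR adjusted p = 0.0224). Removing any of CON 2, CON 3, GCA 1 and GCA 2 ended the call, at an edgeR adjusted p of 0.0554 to 0.0863. NDUFC2 shares 16.3% of its exon bases with the same-strand gene NDUFC2-KCTD14. The sources used here do not say how reads in the shared bases were assigned or left out, so its level of 3.91 FPKM is uncertain.

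NDUFB11, an X-linked subunit of the membrane arm (chrX:47142216-47145491), gave 176.1, 113.4 and 120.7 CPM in CON 1, 2 and 3 and 194.6, 194.1 and 203.2 CPM in GCA 1, 2 and 3. The GCA libraries lay within 10 CPM of each other and above CON 1, the highest of its group. The log2 fold change was 0.53 ± 0.16 (SE, edgeR adjusted p = 0.0193). Of its exon bases, 44.9% are shared with RBM10 on the other strand, whose log2 fold change was -0.33 ± 0.15 (SE, edgeR adjusted p = 0.0961). The sources used here do not say whether counting used strand, so reads from such a pair may not be separated.

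NDUFA11, a membrane-arm subunit (chr19:5891229-5903790), gave 323.1, 208.0 and 216.0 CPM in CON 1, 2 and 3 and 332.7, 352.0 and 350.6 CPM in GCA 1, 2 and 3. The lowest GCA library exceeded CON 1 by a small margin and exceeded CON 2 and CON 3 by far more. The log2 fold change was 0.47 ± 0.16 (SE, edgeR adjusted p = 0.0374). NDUFS8, a core subunit that holds iron-sulfur clusters on the path to the quinone site (chr11:68030681-68036644), gave CON levels of 208.9, 139.9 and 151.6 CPM and GCA levels of 221.3, 223.1 and 238.7 CPM, by replicate number. It repeated the arrangement of NDUFA11, with CON 1 just under the GCA libraries. Its log2 fold change was 0.45 ± 0.15 (SE, edgeR adjusted p = 0.0327).

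NDUFA9, an accessory subunit near the junction of the 2 arms (chr12:4649114-4694317), moved the other way. It gave 73.4, 67.0 and 65.0 CPM in CON 1, 2 and 3 and 55.3, 56.1 and 50.9 CPM in GCA 1, 2 and 3. Every GCA library lay below every CON library, and the log2 fold change was -0.34 ± 0.11 (SE, edgeR adjusted p = 0.0328). NDUFA9 shares 11.4% of its exon bases with the same-strand genes AC005832.4 and AC005833.1. Among all members, 15 share at least 10% of their exon bases on the same strand, so their counts carry the same uncertainty. Of the core subunits fixed for description, NDUFV1, which binds NADH, was at 0.05 ± 0.12 (log2, SE, edgeR adjusted p = 0.782). NDUFS1 was at -0.08 ± 0.12 (log2, SE, edgeR adjusted p = 0.609). A p above the threshold does not show that levels were equal. NDUFA13 missed the threshold at 0.41 ± 0.16 (log2, SE, edgeR adjusted p = 0.0632) and passed at 0.0380 with the replicate number as a block, where 20.0% of all genes were higher and 21.0% lower.

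Complex III had 1 of 10 genes past the threshold, where 36.4% of all tested genes passed. UQCRC1, a core subunit that faces the matrix (chr3:48599002-48609646), gave 541.3, 431.5 and 424.4 CPM in CON 1, 2 and 3 and 638.7, 665.5 and 660.7 CPM in GCA 1, 2 and 3. The groups did not overlap, and the spread within GCA was a few percent of its mean of 655 ± 14.3 CPM (SD, n = 3). The log2 fold change was 0.49 ± 0.13 (SE, edgeR adjusted p = 0.0129). Its partner in the same core pair, UQCRC2, had the opposite sign, -0.32 ± 0.14 (log2, SE, edgeR adjusted p = 0.0881), which passed at 0.0382 with the replicate block. UQCRC2 is outside the rule for named genes and was picked after its value was seen.

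CYC1, the cytochrome c1 of complex III, was its most abundant gene at 425.8 FPKM, followed by UQCRC1 at 349.6 FPKM. CYC1 gave 975.6, 608.5 and 614.9 CPM in CON 1, 2 and 3 and 816.5, 808.1 and 791.8 CPM in GCA 1, 2 and 3. The GCA libraries sat between CON 1 and the other CON libraries, and the log2 fold change of 0.14 ± 0.18 (SE) did not pass (edgeR adjusted p = 0.566). UQCRFS1, the Rieske iron-sulfur protein, was at -0.01 ± 0.13 (log2, SE, edgeR adjusted p = 0.979). The near-copy UQCRHL made up 4.81 ± 0.48% (SD, n = 3) of the summed FPKM of UQCRH and UQCRHL in CON and 4.96 ± 0.24% (SD, n = 3) in GCA, and reads of such a pair may be exchanged.

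CYCS, cytochrome c itself and also a trigger of apoptosis when it leaves the mitochondrion (chr7:25118656-25125260), had the largest fall of the 80 genes. It gave 305.5, 221.7 and 216.6 CPM in CON 1, 2 and 3 and 171.8, 188.8 and 172.0 CPM in GCA 1, 2 and 3. Every GCA library lay below every CON library, and CON 1 was the highest of the 6. The log2 fold change was -0.48 ± 0.15 (SE, edgeR adjusted p = 0.0210), or 0.72 of the CON level. Leaving out GCA 1, GCA 2 or GCA 3 moved the adjusted p to 0.0858, 0.0517 and 0.0950.

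Complex IV had 0 of 14 tested genes past the threshold (36.4% of all tested genes passed), and 13 of 14 log2 fold changes were above 0. At an unadjusted edgeR p under 0.05 there was 1, COX6B1, and DESeq2 called 0. With the GC and length correction described below, 8 of 14 log2 fold changes were above 0, at a median of 0.07. COX6A1, the general isoform of a regulatory subunit and the most abundant gene of the complex at 789.9 FPKM, gave 454.3, 342.1 and 356.5 CPM in CON 1, 2 and 3 and 442.5, 474.7 and 486.1 CPM in GCA 1, 2 and 3. The groups overlapped only through CON 1, and the log2 fold change was 0.28 ± 0.14 (SE, edgeR adjusted p = 0.123). COX8A, second at 735.4 FPKM, was at 0.25 ± 0.15 (log2, SE, edgeR adjusted p = 0.204). COX4I1, which carries an allosteric nucleotide site, was at 0.18 ± 0.14 (log2, SE, edgeR adjusted p = 0.311), and COX5A, its neighbour in the complex, at -0.06 ± 0.13 (log2, SE, edgeR adjusted p = 0.761). COX6B1 was at 0.39 ± 0.16 (log2, SE, edgeR adjusted p = 0.0686) and passed at 0.0362 with the replicate block. It too was picked after its value was seen.

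Isoforms known from lung, testis or low oxygen had low counts. COX4I2, the lung isoform that responds to low oxygen, had 0 counts in 5 libraries and 3 in GCA 1, and COX8C had 0 to 3 counts in each library. COX6B2, known from testis, had 35 to 64 counts in CON and 53 to 75 in GCA, or 0.31 ± 0.13% (SD, n = 3) and 0.30 ± 0.06% (SD, n = 3) of the summed FPKM of COX6B1 and COX6B2. NDUFA4L2, a target of the low-oxygen response, made up 2.43 ± 1.17% (SD, n = 3) of the summed FPKM of NDUFA4 and NDUFA4L2 in CON and 1.97 ± 0.16% (SD, n = 3) in GCA. None of these shares moved beyond the spread between replicates.

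Complex V had 0 of 18 tested genes past the threshold (36.4% of all tested genes passed), and its median of 0.06 was the smallest of the 4 complexes. At an unadjusted edgeR p under 0.05 there were also 0, and DESeq2 called 0. ATP5F1B, the catalytic beta subunit and the most abundant gene at 783.4 FPKM, gave 1596, 1295 and 1313 CPM in CON 1, 2 and 3 and 1473, 1309 and 1301 CPM in GCA 1, 2 and 3, with overlapping groups and a log2 fold change of -0.04 ± 0.14 (SE, edgeR adjusted p = 0.834). ATP5F1A, the alpha subunit, gave CON levels of 511.8, 523.5 and 510.8 CPM and GCA levels of 420.3, 462.9 and 425.4 CPM. Its groups did not overlap and CON 1 did not stand apart, yet the log2 fold change of -0.24 ± 0.12 (SE) missed the threshold (edgeR adjusted p = 0.130). ATP5F1D, the delta subunit and second in abundance at 652.5 FPKM, was at 0.29 ± 0.16 (log2, SE, edgeR adjusted p = 0.170). ATP5IF1, the inhibitor that stops the enzyme from running in reverse, was at 0.18 ± 0.13 (log2, SE, edgeR adjusted p = 0.298).

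The 3 genes ATP5MC1, ATP5MC2 and ATP5MC3 encode the same mature c-ring protein with different import sequences. ATP5MC1 supplied 52.3%, 50.3% and 48.6% of their summed FPKM in CON 1, 2 and 3 and 47.3%, 45.1% and 44.1% in GCA 1, 2 and 3. ATP5MC3 supplied 32.1%, 32.1% and 33.0% in CON and 34.8%, 35.7% and 36.4% in GCA. Both shares were without overlap between groups, with means of 50.4 ± 1.85% (SD, n = 3) against 45.5 ± 1.64% (SD, n = 3) for ATP5MC1 and 32.4 ± 0.54% (SD, n = 3) against 35.6 ± 0.79% (SD, n = 3) for ATP5MC3. The exact two-sided permutation test gave p = 0.1 for each, the smallest value that 3 against 3 allows, and 0.35 after adjustment over the 7 shares compared. ATP5MC2 moved from 17.2 ± 1.42% to 18.9 ± 0.87% (SD, n = 3 each, exact permutation p = 0.2, adjusted 0.467). For the 4 other shares, those of COX6B2, NDUFA4L2, UQCRHL and COX7A2L, the exact permutation p ran from 0.6 to 1.

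The CON libraries did not agree on the level of these genes. CON 1 was the highest of the CON libraries for 75 of 80 members (93.8%), against 38.0% of all tested genes, and the median ratio of CON 1 to the mean of CON 2 and CON 3 was 1.48, against 0.96 over all genes. The summed level of the 83 genes was 17830 CPM in CON 1, 12510 in CON 2 and 12710 in CON 3, and 15540, 15930 and 15530 CPM in GCA 1, 2 and 3. The GCA libraries thus lay within a narrow band between CON 1 and the other CON libraries. The same order held for the sums of complexes I, III, IV and V, but not for CYCS. All 3 GCA libraries lay between CON 1 and the pair CON 2 and CON 3 for 46 of 80 members (57.5%), against 5.19% of all tested genes. Accordingly few groups were free of overlap: GCA lay wholly above CON for 6 members (7.5%; 24.1% of all tested genes) and wholly below for 6 (7.5%; 24.3% of all tested genes). Those below were CYCS, NDUFA9, ATP5F1A, NDUFA10, NDUFB5 and NDUFV2. The median coefficient of variation of the members was 24.5% in CON, 2.2% between CON 2 and CON 3 alone, and 5.1% in GCA, where the values over all genes were 13.5%, 5.1% and 10.2%.

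**Figure D2:**
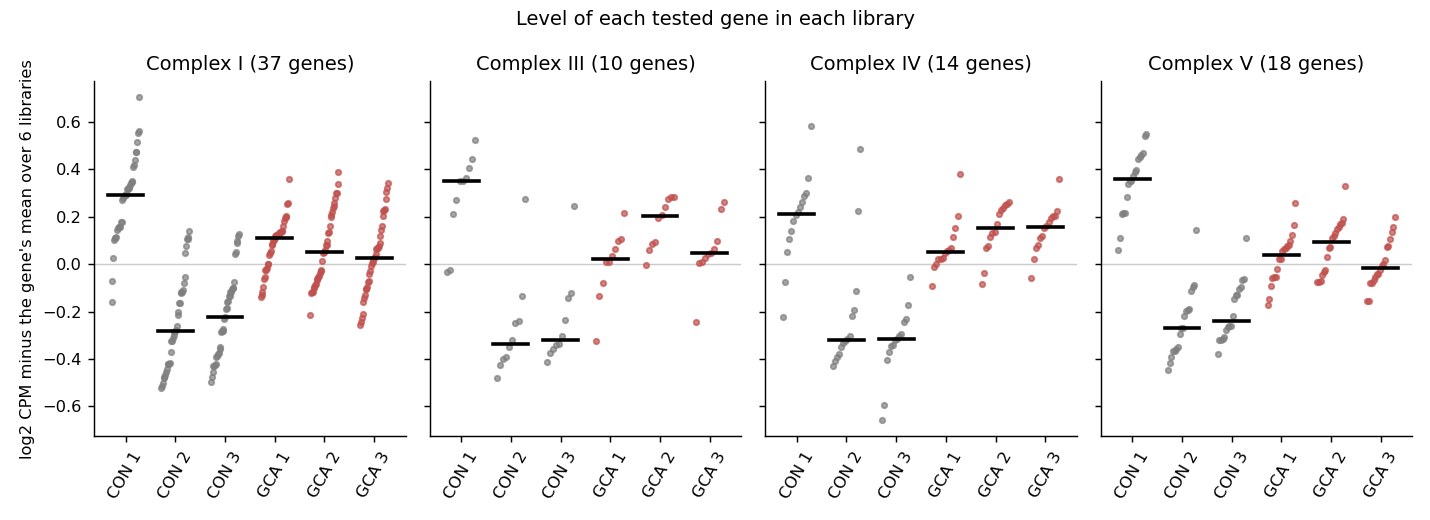
Level of each tested gene in each library, as log2 CPM minus the gene's mean over the 6 libraries (y axis), for complexes I, III, IV and V. Points are genes and black bars are medians. In each complex the median of CON 1 lies above the medians of the 3 GCA libraries, and those of CON 2 and CON 3 lie below them.

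Without CON 1 the comparison changed in number and size. The edgeR fit then called 49 members higher, where 25.3% of all tested genes were, and 5 lower, where 27.3% were. The 6 genes higher and 2 lower with all libraries kept their calls, and ATP5F1A, NDUFA10 and UQCRC2 joined the lower side. By complex, 21 of 37 genes were higher and 2 lower in complex I, 7 of 10 higher and 1 lower in complex III, 11 of 14 higher and 0 lower in complex IV, and 10 of 18 higher and 1 lower in complex V. The median log2 fold change over the members was 0.35, and the ratio of summed CPM in GCA to CON rose from 1.09 to 1.24. CYCS was still lower at -0.31 ± 0.09 (log2, SE, edgeR adjusted p = 0.0111). Which of the CON libraries represents untreated cells cannot be told from 3 libraries. Leaving out any other library reduced the calls among the members and among all tested genes. Without CON 2, 1 member was higher (13.6% of all tested genes) and 1 lower (10.2%), and without CON 3 these were 1 (14.7%) and 1 (12.0%). Without GCA 1 they were 2 (16.0%) and 0 (13.2%), without GCA 2 they were 1 (13.7%) and 1 (11.7%), and without GCA 3 they were 2 (11.8%) and 0 (8.88%). NDUFA2 was among the higher genes in each of these fits, and the 1 lower gene was CYCS for CON 2 and CON 3 and UQCRC2 for GCA 2.

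**Figure D3:**
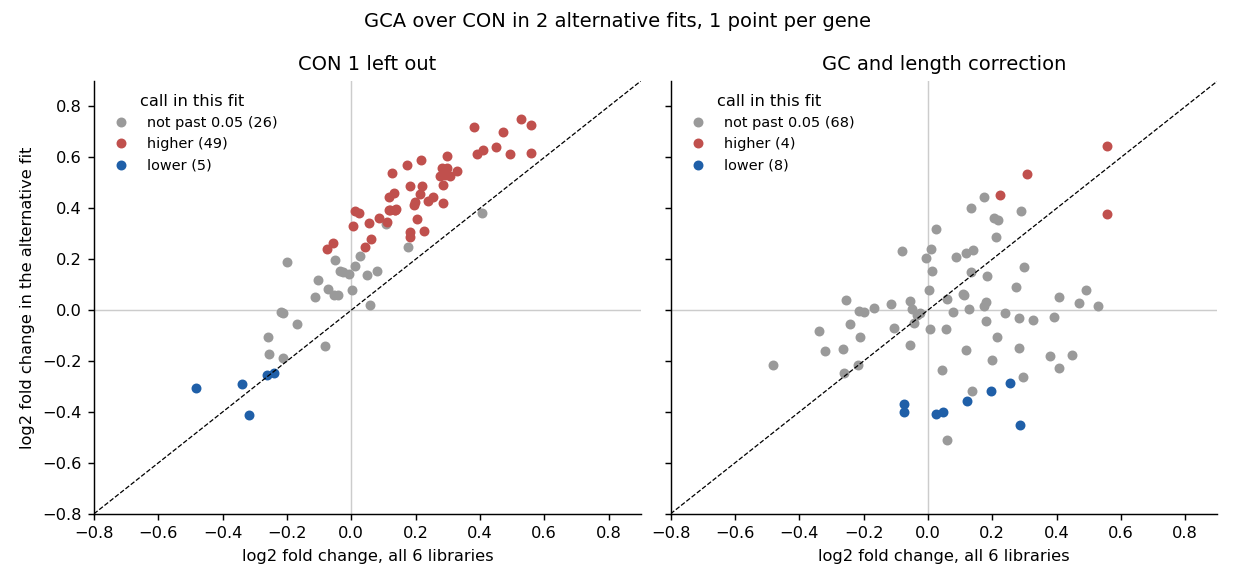
Log2 fold change of GCA over CON with all 6 libraries (x axis) against the value with CON 1 left out (left) and with the GC and length correction (right), 1 point per tested gene, coloured by the call in the alternative fit. Without CON 1 most points rise above the dashed line of equality and 49 are called higher. With the correction the points scatter about 0 and 4 are called higher and 8 lower.

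Fold changes also moved with the base composition of the transcripts. Across the 80 members the log2 fold change correlated with transcript GC content at Pearson r = 0.51 and Spearman rho = 0.50, and across 12556 tested genes at 0.48 and 0.57. These are correlations across genes of the same 6 libraries, and genes are not independent replicates. The members were shorter than other genes, with a median length of 1180 bases against 3993, and had a similar median GC content, 49.9% against 51.0%. The excess of CON 1 over CON 2 and CON 3 correlated with log2 length at r = -0.34 among members and -0.42 among all genes, and with GC content at r = -0.04 among members and 0.32 among all genes. Of the 6 genes called higher, NDUFB11, NDUFA11, NDUFS8 and UQCRC1 lie at a GC content of 55% or more, and NDUFA2 (51.7%) and NDUFC2 (48.7%) lie below it, as do CYCS and NDUFA9, both called lower. The limit of 55% was chosen after the values were seen. The 22 members at or above it had a median log2 fold change of 0.28, and the 58 below it 0.05.

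A correction for GC content and length, fitted per library over all genes, altered most of the calls. The edgeR fit with it called 4 members higher, where 11.8% of all tested genes were, and 8 lower, where 16.6% were. NDUFA2 and NDUFC2 were kept, at log2 fold changes of 0.38 (edgeR adjusted p = 0.0117) and 0.64 (edgeR adjusted p = 0.00842). NDUFB11, NDUFA11, UQCRC1 and NDUFS8 were lost, with values of 0.02, 0.03, 0.08 and -0.18, as were CYCS at -0.22 and NDUFA9 at -0.08 (edgeR adjusted p from 0.149 to 0.908 over these 6). COX7A2L, which joins complexes III and IV into supercomplexes, and NDUFA4 became higher. NDUFV1, NDUFS3, NDUFS6, NDUFB10, COX8A, ATP5F1D, ATP5MC1 and ATP5ME became lower. The median over the members was -0.01. After the correction the log2 fold change no longer correlated with GC over all genes (r = 0.01), while among the members it did so in the opposite direction (r = -0.63). The curve fitted to all genes thus left a relation with GC within the members. With the correction and CON 1 left out, a fit chosen after the data were seen, 24 members were higher, where 16.1% of all tested genes were, and 9 lower, where 20.9% were.

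**Figure D4:**
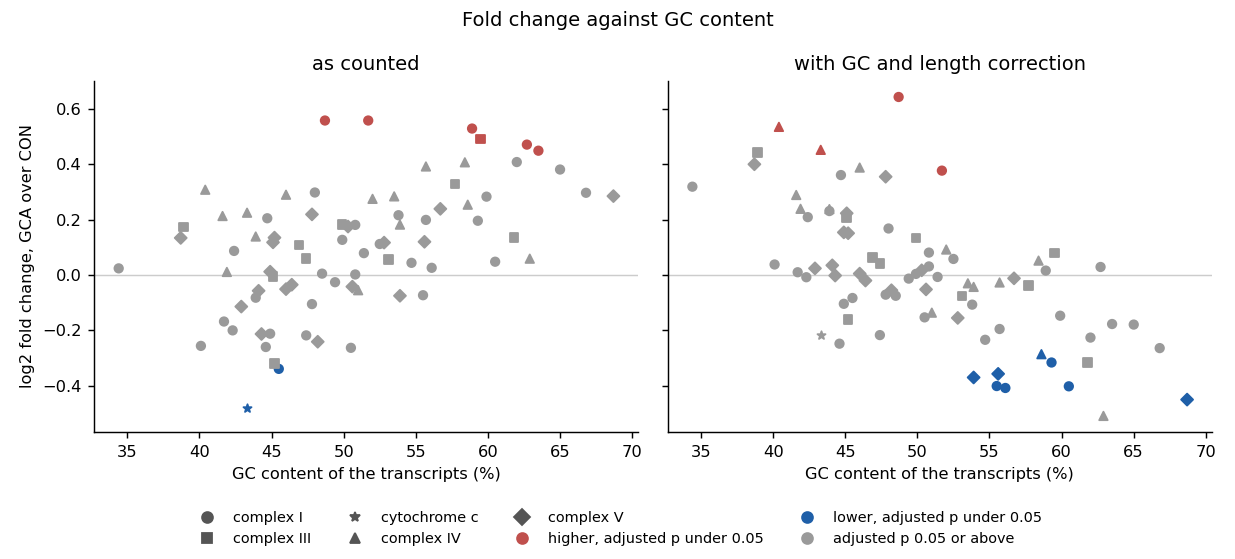
Log2 fold change of GCA over CON (y axis) against transcript GC content in percent (x axis) for the 80 tested genes, as counted (left) and with the GC and length correction (right). Symbols give the complex and colours the call. On the left the 4 higher genes at a GC content of 55% or more lie among the highest points, and on the right 7 of the 8 lower genes lie there.

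Genes that build or regulate the chain were read from lists chosen with earlier results of these data known. Of the 4 subunits of complex II 0 passed in edgeR, 1 was lower at an unadjusted p under 0.05 and DESeq2 called 0, and their median log2 fold change was -0.02. Assembly factors of complex I gave 0 higher and 3 lower of 16 (NDUFAF2, NDUFAF5 and TIMMDC1), and those of complex III 0 higher and 2 lower of 6. No member of these 2 lists or of the regulators below was higher at an unadjusted p under 0.05 or in DESeq2. BCS1L, which inserts the Rieske protein, fell by 0.68 ± 0.14 (log2, SE, edgeR adjusted p = 0.00258), and TTC19 was the other. Assembly factors of complex IV gave 3 higher and 3 lower of 22. SURF1, an early assembly factor, was higher at 0.49 ± 0.13 (log2, SE, edgeR adjusted p = 0.00894), as were the copper chaperone SCO2 and COX20. LRPPRC, which stabilises messenger RNAs inside the mitochondrion, was lower at -0.76 ± 0.13 (log2, SE, edgeR adjusted p = 0.000802), as were SCO1 and COX10. Assembly factors of ATP synthase gave 0 calls among 4 in edgeR and in DESeq2, with 1 lower at an unadjusted p under 0.05. These shares stand beside the 18.3% and 18.1% of all tested genes called higher and lower. For all tested genes they became 25.3% and 27.3% without CON 1, and 11.8% and 16.6% with the GC and length correction. Without CON 1 the counts of higher and lower genes were 3 and 4 for complex I factors, 2 and 3 for complex III factors and 7 and 3 for complex IV factors. With the GC and length correction they were 0 and 6, 0 and 2, and 1 and 3. NDUFAF5 and TTC19 lost their calls there, as did SURF1 at 0.15 (edgeR adjusted p = 0.227), SCO2 at -0.03 (edgeR adjusted p = 0.882), SCO1 and COX10.

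Synthesis of coenzyme Q, the lipid carrier between complexes I and III, gave 2 higher (COQ8B and COQ10A) and 3 lower genes (PDSS1, PDSS2 and COQ3) of 13. Of all tested genes 18.3% were higher and 18.1% lower. PDSS1 and PDSS2, the enzyme pair that makes its isoprenoid tail, were lower at -0.74 ± 0.17 and -0.66 ± 0.15 (log2, SE, edgeR adjusted p = 0.00467 and 0.00540). Of 16 carriers, porins and cristae organisers, 0 were higher (1 at an unadjusted p under 0.05, 0 in DESeq2) and 4 were lower, namely VDAC1, VDAC2, CHCHD3 and OPA1. CHCHD3, part of the complex that shapes cristae, had the lowest adjusted p at -0.62 ± 0.12 (log2, SE, edgeR adjusted p = 0.00183). Without CON 1 the higher and lower genes numbered 4 and 3 for coenzyme Q synthesis and 3 and 5 for the carriers, porins and cristae organisers. Under the correction for GC and length they numbered 1 and 1, and 0 and 3. The shares of all tested genes called higher and lower were 25.3% and 27.3% without CON 1, and 11.8% and 16.6% with the correction. Under the correction PDSS1 and PDSS2 were at -0.49 and -0.38 and no longer passed (edgeR adjusted p = 0.0669 and 0.0910). COQ3, COQ8B, VDAC2 and OPA1 also lost their calls. COQ10A, VDAC1 and CHCHD3 kept theirs.

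Regulators of mitochondrial gene expression had 0 higher and 9 lower of 15 tested genes, with a median log2 fold change of -0.40, against 18.1% of all tested genes called lower and a median of -0.04. GABPB1, the partner of GABPA in the GABP factor, was counted at 182, 294 and 286 reads in CON 1, 2 and 3 and at 135, 153 and 115 in GCA 1, 2 and 3, a log2 fold change of -0.97 ± 0.20 (SE, edgeR adjusted p = 0.00235). POLG, the mitochondrial DNA polymerase, was at -0.50 ± 0.12 (log2, SE, edgeR adjusted p = 0.00522), PPARGC1B of the PGC-1 family at -0.58 ± 0.15 (adjusted p = 0.00849) and YY1 at -0.42 ± 0.12 (adjusted p = 0.0150). TFAM, which packages mitochondrial DNA and starts its transcription, was lower at -0.40 ± 0.13 (log2, SE, edgeR adjusted p = 0.0247). NRF1 was at -0.22 ± 0.12, GABPA at -0.40 ± 0.20 and ESRRA at 0.19 ± 0.12 (log2, SE), and none of these passed (edgeR adjusted p = 0.185, 0.132 and 0.236). PPARGC1A, the founding member of the PGC-1 family, had 0 counts in CON and 1, 0 and 1 in GCA. With CON 1 left out 12 of the 15 regulators were lower and 1 higher, and with the GC and length correction 8 were lower and 0 higher. Of all tested genes 27.3% were lower and 25.3% higher without CON 1, and 16.6% and 11.8% with the correction. Under the correction 6 of the 9 calls were kept. TFAM, at -0.09 (edgeR adjusted p = 0.634), TFB2M and POLG2 lost theirs, and POLRMT and TWNK became lower. The difference between this list and the subunit genes was not tested.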

How the data were processed

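RNA-seq libraries from 3 GCA and 3 CON samples were analysed. The authors deposited raw read counts per gene symbol. The authors also deposited FPKM values, each of which equals the count over the library total and 1 length per gene (16229 of 16229 genes, relative tolerance 1e-09). Per the submitters' processing notes, the tools were fastp (0.20.1), HISAT2 (2.2.1.0) and HTSeq (0.11.2) on hg38; the sources used here do not give annotation, strand setting or filters. Counts were tested with edgeR 4.0.16 (R 4.3.3): TMM scaling, filterByExpr (minimum count 10, minimum total 15), a quasi-likelihood F test of GCA against CON, and Benjamini-Hochberg adjustment over all 12604 tested genes at 0.05. SE was computed as the absolute log2 fold change over the square root of F. The main edgeR fit was also run on simulated counts with the means, library sizes and common dispersion of these data. Those counts held no library that stood apart as CON 1 did, and the alternative fits were not run on them. CPM uses TMM-scaled library sizes. Member genes, lists and tests were chosen with earlier results of these data known. The rule named every member past the threshold, the 2 most abundant genes of each complex, set core subunits, isoforms and regulators, and up to 4 genes per further list by lowest adjusted p; any other gene named was picked after its values were seen. Some of the genes that the rule takes are counted but not reported here by name.

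Replicate numbers come from the sample titles. Across genes, each GCA library's deviation from its group mean correlated with that of the CON library of its number at 0.206, 0.137 and 0.104. Differently numbered libraries gave -0.172 to 0.095. All same-number values were over the limit of 0.1, so by that limit the numbers pair samples. The main test left this pairing out, and the replicate block was run as an alternative. Alternatives were other scalings and filters, DESeq2 1.42.0, limma 3.58.1 (voom, and FPKM on the log2 scale with pseudocounts of 1 and 0.1), replicate number as a block, a smooth correction for transcript GC (GENCODE 29) and gene length (mgcv 1.9.3), and leaving out each library. GC content was found for 16079 genes (99.1%). Coordinates and promoters are from RefSeq (GRCh38.p14), by symbol.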

Additional observations from a re-analysis of the deposited data

How the results depend on the processing

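All 8 member calls remained with DESeq2's size factors, upper-quartile scaling, library size only, no filter, a stricter filter (1 CPM in 3 libraries), DESeq2, limma-voom and both FPKM fits, and with the replicate block. The counts of higher and lower members were 8 and 4 on log2(FPKM + 1) and log2(FPKM + 0.1), 8 and 3 with the replicate block, 4 and 8 with the GC and length correction, and 7 and 10 with block and correction together. With number 1 left out of both groups they were 54 and 5, and with the correction and CON 1 left out 24 and 9. Leaving out 1 library gave 1 to 49 higher and 0 to 5 lower members, and medians of the members of -0.006 (without CON 2) to 0.352 (without CON 1), the cause of which was not tested; without number 1 in both groups the median was 0.365. Over the 12604 genes tested, 2307 were higher and 2277 lower. The counts over all tested genes were 2028 and 2100 on log2(FPKM + 1) and 2041 and 2112 on log2(FPKM + 0.1). They were 2518 and 2645 (20.0% and 21.0%) with the replicate block. With the GC and length correction they were 1487 and 2090 (11.8% and 16.6%), and with both 1731 and 2635. With number 1 left out of both groups they were 3710 and 3709, and with the correction and CON 1 left out 2041 and 2648. Leaving out 1 library gave 1493 to 3225 higher and 1128 (without GCA 3) to 3482 (without CON 1) lower.

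Signs that turned, in log2 fold change, were mostly under the GC and length correction, and only a part of them is given here. Of the 80 values 56 were above 0 in the main fit and 38 with the correction. There ATP5F1D was at -0.450 (-0.450 with the block, -0.420 without CON 1), COX8A at -0.286 (-0.288, -0.305), NDUFV1 at -0.402 (-0.404, -0.411) and NDUFS8 at -0.177 (-0.177, -0.165). CYC1 was at -0.316 with the correction alone and at -0.301 with block and correction. With the correction and without CON 1, CYCS was at 0.078, NDUFA9 at 0.087, NDUFA13 at -0.223, NDUFS1 at 0.306 and UQCRFS1 at 0.405. NDUFA13, NDUFS1 and UQCRFS1 had turned with the correction alone, at -0.226, 0.231 and 0.205. CYCS and NDUFA9 had kept their sign there, at -0.217 and -0.083. ATP5MC1 turned to 0.241 without CON 1 and to 0.226 without number 1 in both groups. The cause was not tested. Of the 80 members, the replicate block changed 3 calls: NDUFA13 and COX6B1 became higher and UQCRC2 lower. The 3 libraries per group and the spread within CON limit the precision. The median SE of the members was 0.158 with all libraries and 0.092 without CON 1. Over all tested genes it was 0.156 and 0.129.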
